A study of Mus musculus with 12 samples.

Results

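Fibrillar and interstitial collagens were followed in mouse liver through 10 genes: Col1a1, Col1a2, Col3a1, Col5a1, Col5a2, Col5a3, Col6a1, Col6a2, Col6a3 and Col14a1. They were chosen by gene symbol, with earlier results of these data known. They are 10 of the 24296 symbols in the deposited table and take up 40 of its 169430 transcripts. Livers of male C57/BL6N mice were sequenced in 4 groups of 3. The control group carries only the label of wild type, with no vehicle stated. The model group was given carbon tetrachloride (CCl4), a liver toxin, in olive oil into the peritoneum, at 5 mL/kg on 2 days a week for 8 weeks. The silibinin group and the phloridzin group had the same CCl4 course, with the drug added from week 5. Silibinin is a flavonolignan of milk thistle and phloridzin is a dihydrochalcone glucoside. The sample labels give no dose for either drug. The study names the sequenced phloridzin livers as its high-dose group, and its methods give the 2 drugs at different doses. The ages of the mice were not given in the sources used here.

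Collagens are proteins of 3 chains wound into a helix, secreted as precursors and built into the matrix outside the cell. Types I and III form the main fibrils of scar tissue, type V is laid down inside these fibrils and bears on their width, type VI forms beaded filaments around cells, and type XIV binds to the surface of fibrils. In an injured liver, hepatic stellate cells that turn into myofibroblasts, together with portal fibroblasts, are known as their main source.

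Levels are given in FPKM, a fragment count divided by the transcript's length in kilobases and by the size of the library, summed over all transcripts of a gene. Depth was between 83.7 M and 110.9 M (mega) fragments per liver, and model replicate 1 was the shallowest. A gene was called different where the adjusted p was under 0.05 and the log2 fold change of (FPKM + 1) was over 1 in either direction. This scale understates differences of genes with low levels. All 10 collagen genes had a mean over the 12 livers of at least 0.5 FPKM and entered the test, and these means include the groups in which they were high.

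Col1a1 and Col3a1 encode the chains that make up most of the fibrils, alpha 1 of type I and the only chain of type III. Col1a1 (ENSMUSG00000001506) lies on chromosome 11, from 94936224 to 94953042 on the plus strand of mm10. Its level in the control livers was 1.66, 1.04 and 1.48 FPKM. The model livers had 46.4, 37.0 and 62.1 FPKM. All 3 model livers were far above all control livers, with means of 48.5 ± 12.7 and 1.4 ± 0.321 FPKM (SD, n = 3), a ratio of 34.7. In the silibinin group Col1a1 was at 50.9, 49.8 and 16.2 FPKM. The phloridzin group had 85.1, 22.0 and 17.1 FPKM. Neither drug group overlapped with the controls, both overlapped with the model group, and each held 1 liver apart from the other 2, silibinin replicate 3 on the low side and phloridzin replicate 1 on the high side.

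Col3a1 (ENSMUSG00000026043; chromosome 1, 45311538 to 45349706, plus strand) followed the same order of livers within both drug groups. Its control livers had 3.98, 3.21 and 3.78 FPKM. In the model livers it was 68.8, 54.0 and 61.9 FPKM, a ratio of the means of 16.8. With silibinin the values were 72.9, 68.1 and 26.3 FPKM, and with phloridzin 97.6, 32.5 and 24.1 FPKM. The spread between the phloridzin livers, 51.4 ± 40.2 FPKM (SD, n = 3), was several times that between the model livers, 61.6 ± 7.44 FPKM.

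Col6a2 and Col6a3 encode alpha 2 and alpha 3 of type VI, and alpha 3 is the chain whose end is released as endotrophin. Col6a3 was at 1.74, 1.24 and 1.32 FPKM in the controls and at 13.5, 9.02 and 18.5 FPKM in the model livers. It had 12, 14.7 and 7.36 FPKM with silibinin and 15.4, 8.82 and 6.51 FPKM with phloridzin. For Col6a2 the controls had 0.882, 0.723 and 0.748 FPKM and the model livers 5.6, 7.12 and 7.58 FPKM. Again the model group stood clear of the controls, with ratios of the means of 9.53 for Col6a3 and 8.63 for Col6a2. The Col6a2 values were 6.79, 8.35 and 3.8 FPKM in the silibinin group and 9.72, 5.52 and 5.06 FPKM in the phloridzin group, which lay on both sides of the model values.

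**Figure D1:**
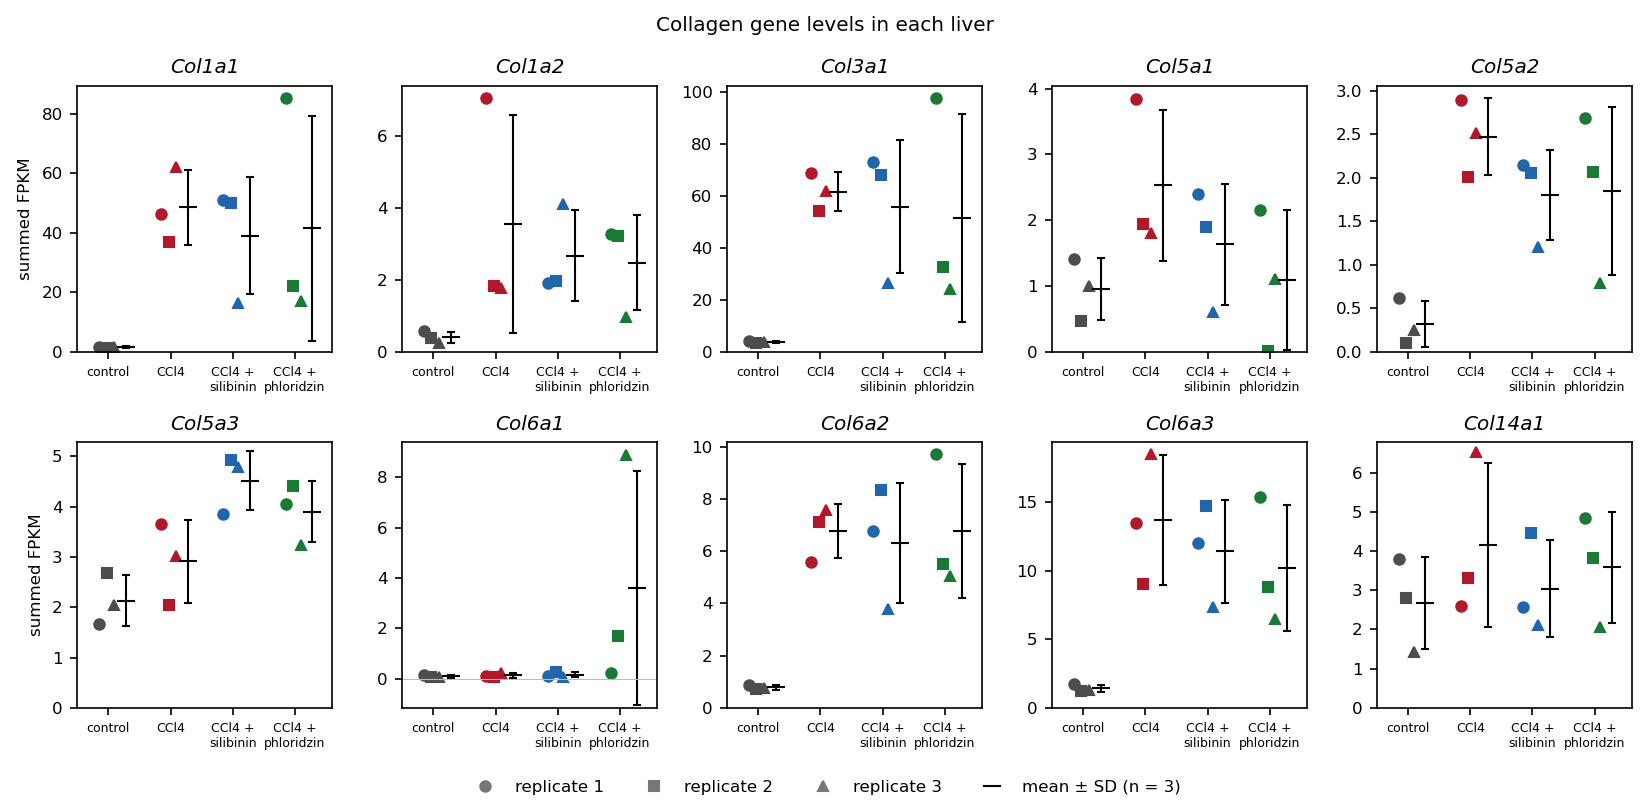
Summed FPKM of each collagen gene (y axis, linear, a separate scale for each gene) in the 12 livers by group (x axis); symbols are replicates and bars are the mean ± SD of 3 livers. Col1a1, Col3a1, Col6a2 and Col6a3 have every CCl4 liver above every control liver, and silibinin replicate 3 and phloridzin replicate 1 stand apart for Col1a1 and Col3a1.

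For Col1a2, Col5a2 and Col6a1 a limit comes first, since in most livers their sums rest on partial transcripts. The longest protein-coding transcript held 98.3% of the summed FPKM of Col1a1 and 95.9% of that of Col3a1. The same share was 1.9% for Col1a2 and 3.01% for Col5a2. For Col1a2 the full-length transcript, of 5348 bases, was listed at 0 in 8 of the 12 livers and reached 0.5 FPKM at most. Transcripts that the assembler built without a gene name or position held between 25.5% and 29.8% of all FPKM in the control livers and between 19.4% and 21.3% in the CCl4 livers. Whether fragments of Col1a2, Col5a2 or Col6a1 are among them was not tested, so the levels of these 3 genes cannot be set beside those of the others.

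**Figure D2:**
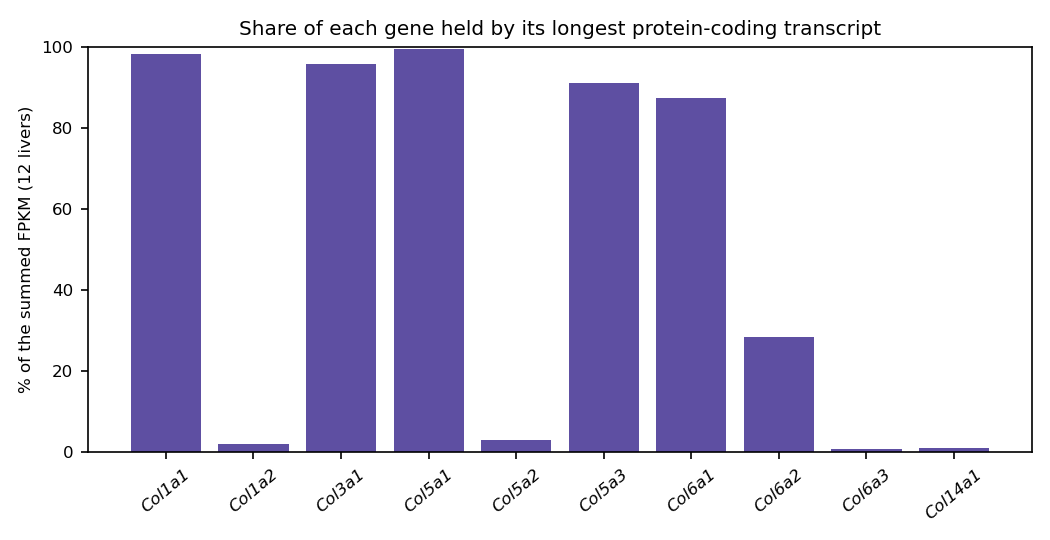
Percent of each gene's FPKM, summed over 12 livers (y axis), that lies in its longest protein-coding transcript, for the 10 collagen genes (x axis). Col1a1, Col3a1, Col5a1 and Col5a3 are over 90%, while Col1a2 is at 1.9% and Col5a2 at 3.01%; Col6a3 and Col14a1 are low while another coding transcript, equally long for Col14a1, holds 50.5% and 83.5% of their sums.

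Col1a2 encodes alpha 2 of type I, which pairs with 2 chains of alpha 1. Its listed sum was 0.564, 0.373 and 0.247 FPKM in the controls and 7.05, 1.83 and 1.78 FPKM in the model livers. The sums were 1.92, 1.96 and 4.12 FPKM with silibinin and 3.26, 3.21 and 0.949 FPKM with phloridzin. All CCl4 livers were above the controls, but in the model and silibinin groups the liver with the highest Col1a1 was not the one with the highest Col1a2. Col5a2, the alpha 2 chain of type V, had 0.611, 0.104 and 0.246 FPKM in the controls and 2.89, 2.01 and 2.51 FPKM in the model livers. Of its sum, 71.9% came from 1 retained-intron transcript of 1970 bases that was listed at 0 in the 3 controls. Col5a2 had 2.15, 2.05 and 1.2 FPKM with silibinin and 2.69, 2.06 and 0.792 FPKM with phloridzin, all above the controls.

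Col5a1 and Col5a3 encode the alpha 1 and alpha 3 chains of type V. Col5a1 was at 1.41, 0.467 and 0.999 FPKM in the controls and at 3.85, 1.94 and 1.8 FPKM in the model livers, with 99.6% of its sum in the full-length transcript. The silibinin livers had 2.4, 1.9 and 0.609 FPKM and the phloridzin livers 2.15, 0.0102 and 1.11 FPKM, so that both drug groups overlapped with the controls. The lowest value came from 9 fragments. The Col5a3 level was 1.67, 2.68 and 2.05 FPKM in the controls, 3.66, 2.04 and 3.02 FPKM in the model livers, 3.85, 4.93 and 4.78 FPKM with silibinin and 4.05, 4.42 and 3.24 FPKM with phloridzin. Its model livers overlapped with the controls and all 6 drug livers were above the controls.

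Col14a1 encodes type XIV, which decorates fibrils. Its values were 3.79, 2.81 and 1.43 FPKM in the controls, 2.6, 3.32 and 6.52 FPKM in the model livers, 2.56, 4.45 and 2.12 FPKM with silibinin and 4.85, 3.83 and 2.06 FPKM with phloridzin. The 4 groups overlapped. Col6a1, the alpha 1 chain of type VI, was listed between 0.0598 and 0.273 FPKM in the 9 control, model and silibinin livers, from 6 to 40 fragments each. In the phloridzin livers it had 0.222, 1.68 and 8.9 FPKM, the last from 3546 fragments. The full-length transcript of 4100 bases was listed at 0 in 9 of the 12 livers, so a level near 0 here is a listed value and no measure of the chain.

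The order of the mean levels differed between the control group and the other groups. In the controls Col3a1 led at 3.66 FPKM, followed by Col14a1 at 2.67, Col5a3 at 2.13, Col6a3 at 1.43 and Col1a1 at 1.4 FPKM. Each of these 5 overlapped with the next in its range over the control livers, although Col3a1 was above Col14a1 within each of them. Among the model livers the order was Col3a1 at 61.6, Col1a1 at 48.5, Col6a3 at 13.7 and Col6a2 at 6.77 FPKM, with Col14a1 next at 4.15 FPKM. The ranges of Col3a1 and Col1a1 overlapped there, as did those of Col6a2 and Col14a1, while those of Col1a1, Col6a3 and Col6a2 lay apart. Within a liver, Col1a1 was above Col6a3, Col6a3 above Col6a2 and Col6a2 above Col14a1 in every model liver. The same 4 genes led by their means, in the same order, with silibinin and with phloridzin.

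For the question of what CCl4 did, the model group was set against the control group. Of the 10 collagen genes, 6 rose (Col1a1, Col1a2, Col3a1, Col5a2, Col6a2 and Col6a3), beside 9.42% of the 13158 genes tested, and the groups did not overlap upward in 7 of 10, which adds Col5a1, beside 45.1% of all genes. As the genes were chosen with earlier results of these data known, these counts are a description. The log2 fold change of Col1a1 was 4.35 (95% interval 3.10 to 5.6, adjusted p = 0.00042, limma with Benjamini-Hochberg adjustment). That of Col3a1 was 3.75 (2.68 to 4.81, adjusted p = 0.00039), of Col6a3 2.54 (1.81 to 3.28, adjusted p = 0.00042) and of Col6a2 2.11 (1.53 to 2.70, adjusted p = 0.00036), also by limma. Each of these 4 stayed called with any of the 12 livers left out. In bulk liver RNA, more cells of a type and more RNA per cell cannot be told apart, nor can fewer cells and less RNA per cell.

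Col5a2 and Col1a2 were called with smaller differences, 1.40 (0.82 to 1.99, adjusted p = 0.0028, limma) and 1.52 (0.56 to 2.48, adjusted p = 0.021, limma). The call of Col1a2 was lost without control replicate 2 (adjusted p = 0.054), control replicate 3 (0.061) or model replicate 1 (0.059) in limma, and over all the other settings its adjusted p ran from 0.0075 to 0.55. With protein-coding transcripts alone, 4 of the 10 genes were called, Col1a2 had a log2 fold change of 0.53 and Col5a2 fell under the filter and was not tested. The single coding transcript of Col5a2 was at 0.468, 0.0362 and 0.0303 FPKM in the controls and at 0, 0.00595 and 0 FPKM in the model livers, opposite in direction to the sum, whose difference is that of the retained-intron transcripts. With the most abundant transcript Col1a2 was at 0.77, under the fold cutoff. Not called were Col5a1 at 0.83 (interval -0.10 to 1.76), Col14a1 at 0.47 (-0.33 to 1.27), Col5a3 at 0.31 (-0.11 to 0.73) and Col6a1 at 0.05 (-1.17 to 1.27). These intervals leave room for a doubling or more in Col5a1, Col14a1 and Col6a1.

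The whole table also shifted between these groups. The median log2 fold change of model against control was 0.34 over all genes and 1.46 over the 10 collagen genes, and scaling each liver by its median ratio brought these to 0.03 and 1.26. Calls over all genes were 1240 higher and 142 lower, and 554 higher and 424 lower after the scaling. The 6 collagen calls were also 6 after scaling. Counts of gene lists below are to be read beside these shares of all genes: 9.42% called higher and 1.08% lower, and 4.22% higher after the scaling.

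The drug groups were each set against the model group, to see whether a drug given during CCl4 went with other collagen levels. Neither drug gave a call among the 10 collagen genes. With silibinin, 0 of 10 were called lower and 0 higher by limma, beside 3.25% and 0.745% of all genes, and 0 of 10 were lower without the fold cutoff, beside 11.4% of all genes. With phloridzin the count was again 0 of 10 lower and 0 higher by limma, beside 2.92% and 0.6% of all genes, and 0 of 10 lower without the fold cutoff, beside 10.4%. At an unadjusted p under 0.05, limma gave 1 of the 10 genes in each comparison, Col5a3 with silibinin and Col6a1 with phloridzin, both on the higher side. Of all 13158 genes, 3844 with silibinin and 3662 with phloridzin were under this level. limma-voom on the recovered fragments called 0 of the 10 in both, beside 796 and 673 genes in all. The groups did not overlap in 1 of 10 genes upward with silibinin, Col5a3, and in 0 with phloridzin, beside 8.91% and 8.21% of all genes, and in 0 of 10 downward with either drug, beside 27.8% and 22.4%. Both comparisons use the same 3 model livers.

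The intervals show how wide these comparisons were. Col1a1 differed from the model group by -0.44 with silibinin (95% interval -1.69 to 0.81) and by -0.55 with phloridzin (-1.80 to 0.70) on the log2 scale. For Col3a1 the differences were -0.26 (-1.33 to 0.80) and -0.51 (-1.58 to 0.55). Differences of more than 1 in either drug's direction of lower Col1a1 and Col3a1 therefore lie inside the intervals. The intervals of Col6a2 were narrower, -0.13 (-0.72 to 0.46) with silibinin and -0.04 (-0.63 to 0.55) with phloridzin, and those of Col6a3 were -0.24 (-0.97 to 0.49) and -0.41 (-1.14 to 0.32).

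**Figure D3:**
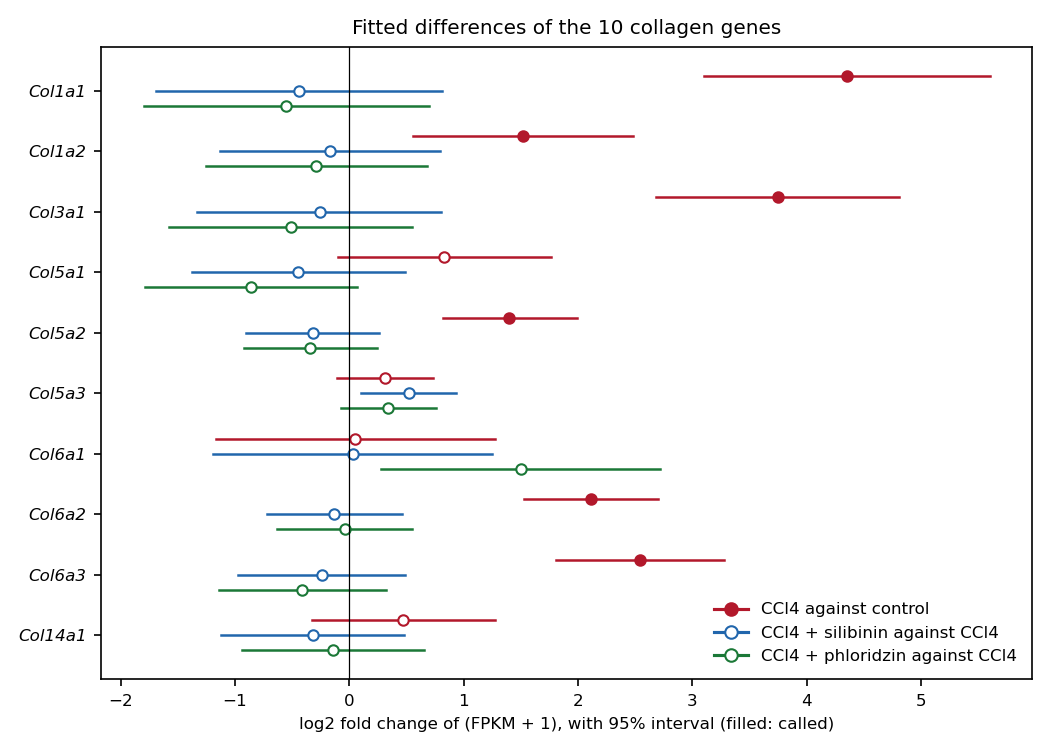
Log2 fold change of (FPKM + 1) with its 95% interval (x axis) for each collagen gene (y axis) in 3 comparisons of 3 livers against 3; filled circles are called. The red CCl4 differences of Col1a1, Col3a1, Col6a2 and Col6a3 are over 2, and no blue or green circle is filled.

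Single livers set much of the spread in the drug groups. With 1 liver left out, the silibinin difference of Col1a1 ran from -0.71 to 0.08 and the phloridzin difference from -1.25 to -0.12. For Col6a2 these differences ran from -0.34 to 0.14 and from -0.3 to 0.12. Those of Col6a3 ran from -0.49 to 0.02 and from -0.72 to -0.15. Without silibinin replicate 3, the differences from the model group were 0.08 for Col1a1 and 0.20 for Col3a1, and the median over the 10 genes went from -0.25 to 0.04. Leaving out phloridzin replicate 1 gave -1.25 for Col1a1 (adjusted p = 0.082, limma) and -1.10 for Col3a1 (adjusted p = 0.073, limma), and the median went from -0.31 to -0.52. Leaving out phloridzin replicate 3 instead gave -0.12 for both genes and a median of -0.04. Without phloridzin replicate 1, Col6a1 passed the threshold at 2.19 (adjusted p = 0.0078, limma; over the settings other than left-out livers, 0.07 to 0.29). Col6a1 passes the filter on low values only through phloridzin replicate 3, and without that liver it was under the filter and had no value, so this call is no result about the gene. The medians over all genes were -0.15 for silibinin and -0.11 for phloridzin. After the median-ratio scaling they were 0.01 and 0.03, with the collagen medians at -0.05 and -0.19. Calls over all genes, 98 higher and 428 lower for silibinin and 79 higher and 384 lower for phloridzin, became 190 and 242 and 141 and 244.

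The 2 drug groups were then set against each other and against the controls. Phloridzin against silibinin gave 0 of 10 collagen calls by limma in either direction, beside 0.0228% of all genes. Here 1 of the 10 genes, Col6a1, had an unadjusted p under 0.05, beside 494 of the 13158 genes, and it carries the limit of its filter given above. By limma-voom 0 of the 10 were called, beside 3 genes in all. The differences were -0.11 for Col1a1 (95% interval -1.36 to 1.14) and -0.25 for Col3a1 (-1.31 to 0.81), so an equal level was not shown. As the doses of the 2 compounds differ, these are values of 2 groups of livers and no comparison at a matched dose.

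Against the controls, both drug groups had 5 of 10 collagen genes called higher by limma, beside 1.74% of all genes for silibinin and 2.74% for phloridzin. The 5 were Col1a1, Col3a1, Col5a2, Col6a2 and Col6a3 in each. The groups did not overlap upward in 7 of 10 genes with silibinin, beside 26.4% of all genes, and in 8 of 10 with phloridzin, beside 26.8%, of which Col6a1 is 1 and carries the limit of its filter given above. The log2 fold changes were 3.90 and 3.79 for Col1a1, 3.48 and 3.23 for Col3a1, 2.30 and 2.14 for Col6a3 and 1.98 and 2.07 for Col6a2, silibinin first. These comparisons share the 3 control livers with each other and with the model comparison. The all-gene medians, 0.16 and 0.18, went to 0 after scaling, and the calls of 229 higher and 32 lower became 164 and 51 for silibinin, and those of 360 and 38 became 205 and 62 for phloridzin.

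Col5a2 was the weakest of these calls, at 1.08 for silibinin (adjusted p = 0.043, limma) and 1.06 for phloridzin (adjusted p = 0.037, limma). It was lost with silibinin when any control liver, any model liver, silibinin replicate 1 or 2 or phloridzin replicate 2 was left out (adjusted p from 0.058 to 0.15 in limma). With phloridzin it was lost without any control liver, model replicate 3, silibinin replicate 1 or 2 or phloridzin replicate 1 or 2 (0.05 to 0.12), and it was 0.99 after the median-ratio scaling. Neither call was made by limma-voom (adjusted p = 0.12 in both) or by limma without the filter on low values (0.079 and 0.07), and that of phloridzin not with only its 2 groups fitted (0.12). With the most abundant transcript of each gene in place of the sum, Col6a3 was no longer called in either, at 1.62 (adjusted p = 0.084, limma) and 1.60 (adjusted p = 0.065, limma). Col1a2 was not called in either, at 1.35 and 1.24, but was called in both without model replicate 1, and with phloridzin also without phloridzin replicate 3 (adjusted p from 0.047 to 0.05 in limma). It was also called in both with a pseudocount of 0.1 (2.44 and 2.25), with silibinin when only the 2 groups were fitted (adjusted p = 0.037, limma) and with phloridzin by limma-voom (2.93, adjusted p = 0.035). Col5a3, at 0.82 with silibinin, was called with that pseudocount (1.07) and by limma-voom (1.09). With protein-coding transcripts alone, Col1a2 was at 0.42 with silibinin and 0.01 with phloridzin (adjusted p = 0.76 and 0.99, limma). Col6a1 passed the threshold against the controls without phloridzin replicate 1 (2.24, adjusted p = 0.023, limma), under the limit given above for this gene and its filter.

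Ratios within a liver cancel the scaling of its library. There were 5 ratios, each in 6 comparisons. The Col3a1 to Col1a1 ratio was 2.39, 3.09 and 2.54 in the controls and 1.48, 1.46 and 0.996 in the model livers. It was 1.43, 1.37 and 1.62 with silibinin and 1.15, 1.47 and 1.41 with phloridzin. Every CCl4 liver had a lower share of Col3a1 to Col1a1 than every control liver, while the 3 CCl4 groups overlapped. The difference of the log2 ratio between model and control was -1.04 (exact two-sided permutation p = 0.1, the smallest that 3 against 3 can give), and -1.06 with protein-coding transcripts alone.

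Within type VI, the Col6a3 to Col6a2 ratio was 1.97, 1.72 and 1.76 in the controls and 2.4, 1.27 and 2.44 in the model livers, so those groups overlapped. It was 1.76, 1.77 and 1.94 with silibinin and 1.58, 1.6 and 1.29 with phloridzin. The phloridzin livers were all below the control livers and the silibinin livers, by log2 differences of -0.29 and -0.30 (exact permutation p = 0.1 for each). Against the controls the difference was -0.51 with protein-coding transcripts and -1.03 with the most abundant transcript, where the groups overlapped. Against silibinin it was -0.16 and -0.04 in these settings, with the groups overlapping in both (exact permutation p = 0.7 and 1). With protein-coding transcripts alone the difference between model and control went from 0.10 to -0.38, and with the most abundant transcript to -1.17 (exact permutation p = 0.1), so its sign depends on which transcripts are summed. Between silibinin and control the difference went from 0.0 to -0.35 and -0.99 in the same 2 settings, without overlap (exact permutation p = 0.1 for each). A lower ratio than in the controls was thus not particular to phloridzin there. Between phloridzin and model it went from -0.4 to -0.13 and 0.14. The Col1a1 to Col1a2 ratio ran from 2.79 to 34.9 over the 12 livers, the Col5a1 to Col5a2 ratio from 0.00497 to 4.51 and the Col6a1 to Col6a2 ratio from 0.0105 to 1.76. These last 3 carry the limit of the partial transcripts given above.

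Summed over the 10 genes, the level was 16.5, 12.7 and 12.4 FPKM in the controls and 154, 118 and 166 FPKM in the model livers. The silibinin livers had 156, 157 and 66.6 FPKM and the phloridzin livers 225, 84.0 and 69.9 FPKM. The highest and the 2 lowest of the CCl4 livers were thus all in drug groups. Col1a1 and Col3a1 made up between 33.5% and 42.6% of this sum in the controls and between 74.6% and 76.9% in the model livers. That share was 79.6%, 75.3% and 63.9% in the silibinin livers and 81.2%, 64.8% and 59.0% in the phloridzin livers, on both sides of the model livers. The sum of phloridzin replicate 3 includes the 8.9 FPKM of Col6a1. Phloridzin replicate 1 had the highest value of its group in 8 of the 10 genes, and silibinin replicate 3 the lowest of its group in 8 of 10. Other livers did the same, as control replicate 1 was the highest of its group in 9 of the 10 genes and phloridzin replicate 3 the lowest in 8.

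**Figure D4:**
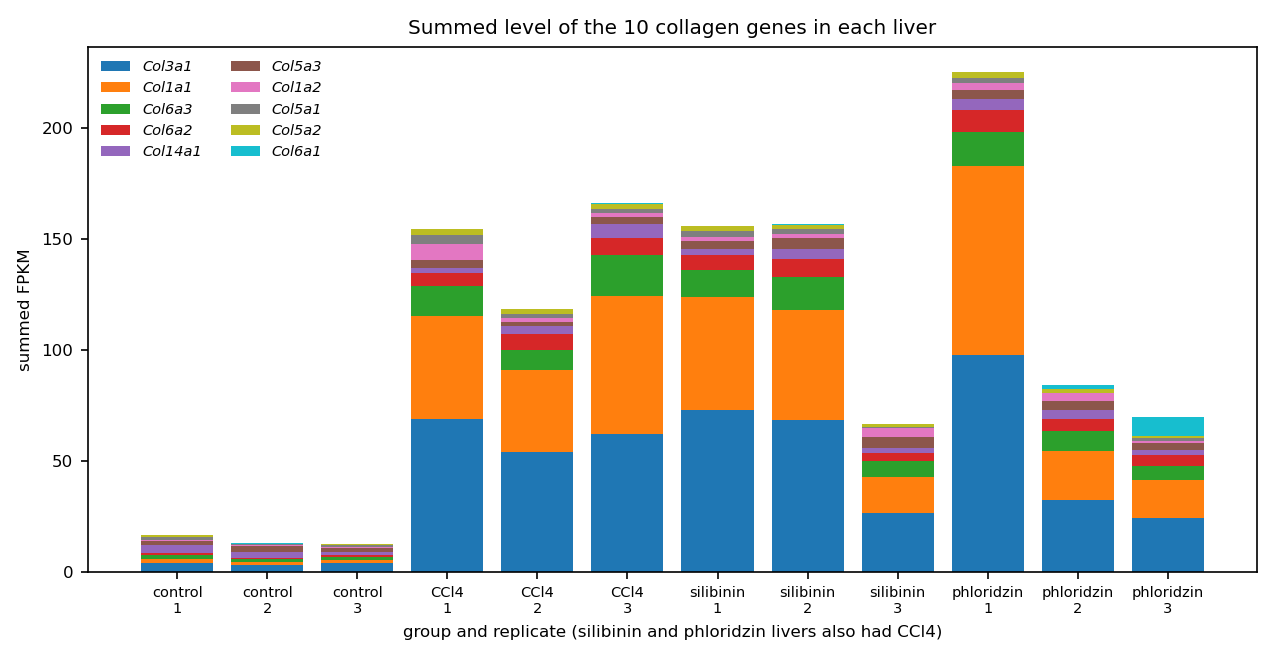
Summed FPKM of the 10 collagen genes (y axis) in each of the 12 livers (x axis), stacked by gene. The control livers are at 12.4 to 16.5 FPKM, and the CCl4 livers, with and without a drug, run from 66.6 to 225 FPKM.

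Some of the genes are neighbours. Col3a1 and Col5a2 lie on chromosome 1 with 24614 bases between them and are read from opposite strands. Col6a2 (chromosome 10, 76595762 to 76623630, minus strand) and Col6a1 (76708792 to 76726168, minus strand) have 85161 bases between them. Opposite-strand NONCODE transcripts overlap Col5a1, Col5a3, Col6a2 and Col14a1. The most abundant of these, inside Col6a2, reached 1.86 FPKM. Whether the counting used the strand is not given in the sources used here, so fragments of such a pair cannot be told apart. Other NONCODE transcripts overlap members on the same strand, where the strand cannot separate them. The most abundant of those, inside Col1a1, was at 4.21 FPKM in model replicate 1 and 4.62 FPKM in silibinin replicate 1. It was at most 0.0454 FPKM in the other livers.

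The bases before the start sites are shown for 2 genes that rose with CCl4, Col3a1 and Col6a3, and for Col5a3, which was not called. For each, a deposited transcript begins at the RefSeq start site, which also holds for Col5a1 and 1 of the promoters of Col6a2. The most abundant transcript of Col6a3 begins inside the gene from there, at 90843952. RefSeq promoters (GRCm38.p6) were matched for 7 of the 10 genes, and not for Col1a1, Col5a2 and Col14a1. Each stretch is the 250 bases before the start, 5′ to 3′ on the gene's strand, at chr1:45311288-45311537 (plus) for Col3a1, chr1:90843972-90844221 (minus) for Col6a3 and chr9:20815068-20815317 (minus) for Col5a3. Capitals mark matches on either strand to TATAAA (the TATA box), CCAAT (the CCAAT box), GGGCGG (the GC box) and CAGACA (which holds the SMAD core), and no matches overlap here.
Col3a1: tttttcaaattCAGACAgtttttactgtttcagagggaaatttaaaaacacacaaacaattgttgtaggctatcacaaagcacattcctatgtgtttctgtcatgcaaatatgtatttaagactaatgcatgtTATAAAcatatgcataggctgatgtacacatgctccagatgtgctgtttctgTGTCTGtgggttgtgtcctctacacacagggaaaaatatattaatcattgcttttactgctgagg
Col6a3: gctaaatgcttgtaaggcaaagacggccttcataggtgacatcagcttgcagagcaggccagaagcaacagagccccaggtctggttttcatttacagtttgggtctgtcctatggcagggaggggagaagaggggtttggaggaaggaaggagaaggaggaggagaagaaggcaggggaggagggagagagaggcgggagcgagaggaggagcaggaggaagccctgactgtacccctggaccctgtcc
Col5a3: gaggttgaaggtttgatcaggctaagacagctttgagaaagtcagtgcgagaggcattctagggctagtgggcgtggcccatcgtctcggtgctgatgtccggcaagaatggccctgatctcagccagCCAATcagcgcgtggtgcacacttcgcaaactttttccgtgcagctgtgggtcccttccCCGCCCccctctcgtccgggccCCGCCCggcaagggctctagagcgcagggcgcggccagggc
The Col3a1 stretch has a TATAAA starting 117 bases before the start and CAGACA on either strand, 35.2% G and C and 0 CpG. The stretch of Col6a3, with 57.2% G and C, holds none of the 4 motifs, and that of Col5a3, at 62.8%, has 1 CCAAT and 2 GGGCGG matches. Among all 32851 promoter stretches of this length, TATAAA was in 12.4%, CCAAT in 33.8%, GGGCGG in 32.7% and CAGACA in 17.1%. Of the 8 promoters of the 7 matched collagen genes, TATAAA was in 1 (Col3a1) and CCAAT in 2 (Col1a2 and Col5a3). GGGCGG was in 5 (Col5a1, Col1a2, Col5a3 and both of Col6a2) and CAGACA in 3 (Col3a1, Col5a1 and Col1a2). A match is only a match of letters, and a missing one says only that the letters are not in this window.

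The other collagens were read from 2 lists. Of the other fibrillar and fibril-associated collagens, 5 of 16 passed the filter on low values and 3 were called higher in the model group by limma. All 3 had a control mean under the filter and were tested through the CCl4 groups where they are high, so this count is partly set by the filter. The same holds for 2 of the 6 collagen calls, Col1a2 and Col5a2, and for Col15a1, Plod2, Lox, Loxl1, Loxl2, Mrc2, Antxr1, Mmp13, Ctsk, Timp1, Wt1 and Mfap4 below. Col6a5, a further type VI chain, had 0.0798, 0.0596 and 0.327 FPKM in the controls and 6.11, 5.73 and 1.9 FPKM in the model livers. Col6a6, its relative, and Col16a1, which sits on fibrils, were called at 1.15 and 1.09 on the log2 scale. After the median-ratio scaling these were 0.99 and 0.88, under the fold cutoff, and 1 of the 5 genes, Col6a5, was called. Among basement membrane and multiplexin collagens, 3 of 5 tested rose. Col4a1 and Col4a2, the common chains of the basement membrane network, went up by 1.36 and 1.22, and Col15a1, which links basement membrane to the matrix, by 1.87. Both Col4a1 and Col4a2 had every model liver above every control liver, at 18.8 to 23.0 against 7.19 to 7.36 FPKM for Col4a1. After the scaling Col4a1 was at 0.97 and Col4a2 at 0.85, and Col15a1 alone was called.

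Before secretion, prolyl and lysyl residues of procollagen are hydroxylated and the helix is folded with the help of chaperones. In the list for hydroxylation, folding and export, 3 of 21 tested genes rose in the model group, beside 9.42% of all genes: Serpinh1, the collagen chaperone HSP47, by 1.72, Plod2, a lysyl hydroxylase, by 1.31 and P4ha1, a catalytic subunit of prolyl hydroxylase, by 1.24 on the log2 scale. Serpinh1 was at 2.32, 1.57 and 1.96 FPKM in the controls and at 7.05, 12.3 and 7.43 FPKM in the model livers. The list's median was 0.69, above the 0.34 of all genes, and 0.46 against 0.03 after the scaling, where P4ha1 was at 0.89 and 2 of the 21 were called, beside 4.22% of all genes. With phloridzin, in 2 genes named after their values were seen, Fkbp14, a prolyl isomerase, fell by 1.05 (adjusted p = 0.00065, limma) and Sec24d, a part of the coat that carries procollagen from the endoplasmic reticulum, fell by 1.31 (adjusted p = 0.0033, limma) against the model group. Fkbp14 was at 4.3 to 5.19 FPKM in the model livers and at 1.53 to 2.01 FPKM with phloridzin, and Sec24d at 3.9 to 5.76 and 1.19 to 1.56 FPKM. After the scaling Fkbp14 was at -0.90, short of the fold cutoff. These were 2 of 21 tested genes called lower with phloridzin, beside 2.92% of all genes, and with silibinin 0 were called. With silibinin, however, Fkbp14 differed from the model group by -0.85 (adjusted p = 0.0021, limma) and Sec24d by -0.98 (adjusted p = 0.012, limma). Both were short of the fold cutoff. Phloridzin against silibinin gave -0.20 for Fkbp14 and -0.33 for Sec24d, without a call. Lower values of these 2 genes were thus not particular to phloridzin. P4ha1 differed from the model group by -1.0 with silibinin (adjusted p = 0.0062, limma) and by -0.73 with phloridzin (adjusted p = 0.028, limma), without a call.

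Other genes trim, assemble and crosslink the fibrils. Of 16 tested, 9 rose with CCl4: Adamts2, Bgn, Lox, Loxl1, Loxl2, Lum, Pcolce, Postn and Sparc. Lumican (Lum), which binds fibrils, had 3.81, 2.65 and 3.11 FPKM in the controls and 19.0, 21.1 and 31.1 FPKM in the model livers, a log2 fold change of 2.54 (adjusted p = 0.0006, limma). Sparc, a collagen-binding protein, went up by 2.08, and Loxl1, one of the lysyl oxidases that start crosslinks, by 1.77. All 3 kept values above the controls in every drug liver. In Sparc, silibinin replicate 3 was again the lowest of its group (29.0 FPKM) and phloridzin replicate 1 the highest (91.2 FPKM). After the scaling 7 of the 16 were called, without Bgn at 0.86 and Pcolce at 0.75.

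Cells bind collagen through receptors, of which 4 of 8 tested rose with CCl4. They were Ddr1 and Ddr2, the discoidin domain receptors, Mrc2, which takes up collagen, and Antxr1. Mrc2 had 0.649, 0.412 and 0.343 FPKM in the controls and 3.41, 2.75 and 3.55 FPKM in the model livers. The median of this list was 1.00. After the scaling Ddr2 was at 0.91 and Antxr1 at 0.92, which left 2 calls. Ddr2 was at 1.79, 2.71 and 2.59 FPKM in the model livers, at 0.797, 1.5 and 0.373 FPKM with silibinin and at 0.854, 0.435 and 0.804 FPKM with phloridzin. Its differences from the model group, -0.86 (95% interval -1.39 to -0.34) and -0.98 (-1.51 to -0.46), stayed short of the fold cutoff, although the groups did not overlap. Of all genes, 27.8% with silibinin and 22.4% with phloridzin were lower without overlap.

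In collagen breakdown and its inhibitors, 5 of 10 tested rose with CCl4: Mmp13, Mmp2, Ctsk, Timp2 and Timp1. Mmp13, an interstitial collagenase of rodents, was at 0, 0.0966 and 0.0137 FPKM in the controls and at 3.91, 6.59 and 6.66 FPKM in the model livers. It had 0.551, 0.591 and 0.326 FPKM with silibinin and 1.81, 0.575 and 0.57 FPKM with phloridzin. Against the 3 model livers that both comparisons share, it fell by 2.15 with silibinin (adjusted p = 0.00033, limma) and by 1.79 with phloridzin (adjusted p = 0.0012, limma), with no overlap of the groups. Mmp2, a gelatinase, was at 9.03, 9.04 and 10.1 FPKM in the model livers at 8.5, 12.5 and 4.62 FPKM with silibinin and at 8.69, 7.28 and 7.32 FPKM with phloridzin, where every liver was below the model livers without a call. The 5 genes were also called after the scaling.

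**Figure D5:**
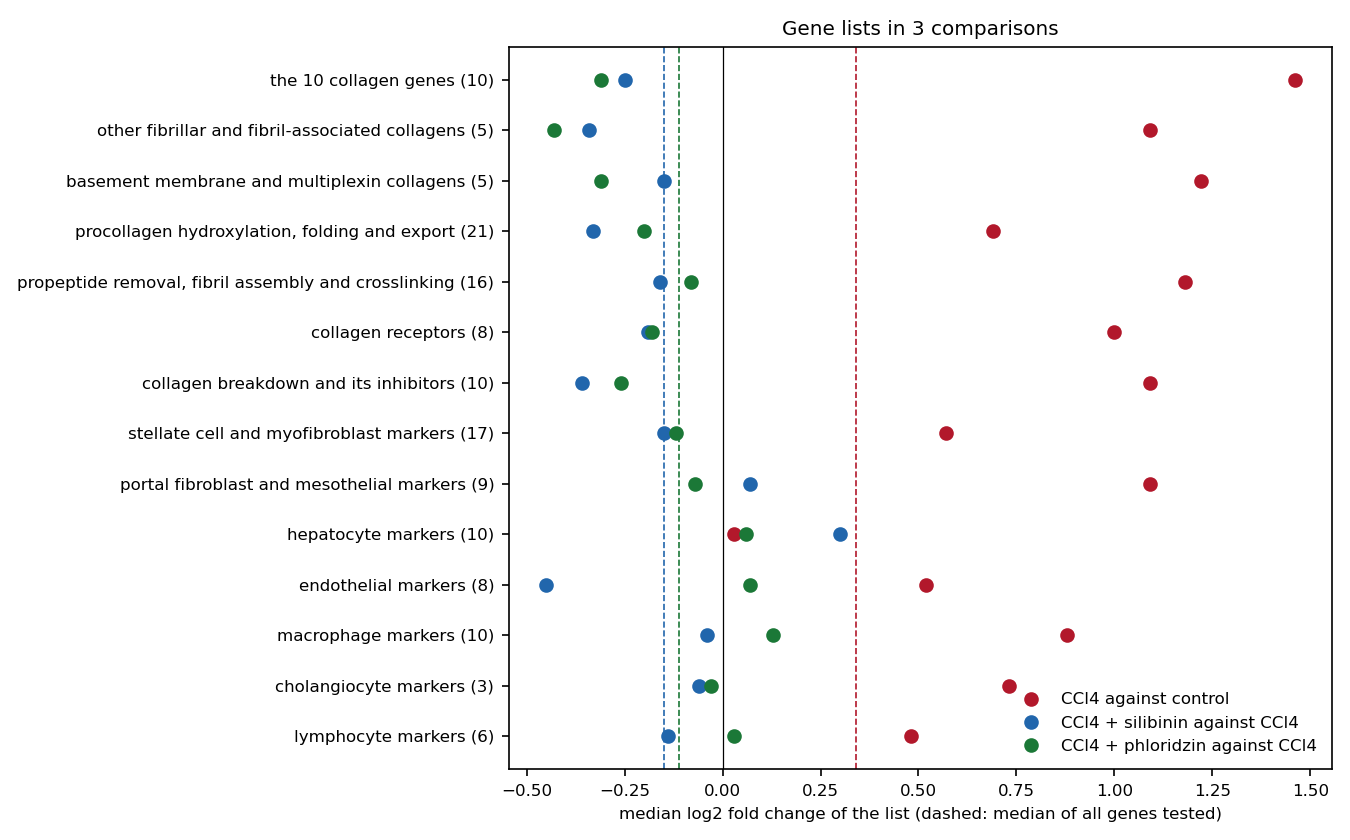
Median log2 fold change (x axis) of each gene list (y axis, number of genes tested in parentheses) in 3 comparisons, with the median of all 13158 genes as dashed lines. For CCl4 against control (red) the collagen genes are at 1.46 against 0.34 for all genes, while the drug comparisons (blue, green) lie between -0.45 and 0.30.

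Markers of the cells that a liver can hold were read in the same way. Of 17 stellate cell and myofibroblast markers tested, from a list of 18 in which Cnn1 was under the filter, 5 rose with CCl4: Pdgfra, Vim, Lrat, Tagln and Cygb. After the scaling 3 were called, without Tagln at 0.89 and Cygb at 0.77. Markers not called included Acta2 at 1.05 (adjusted p = 0.13, limma), Des at 0.57, Myl9 at 0.21 and Pdgfrb at 0.19 on the log2 scale. Colec11 at -0.23 and Ecm1 at -0.08 were on the lower side, also without a call. The list's median was 0.57, beside 0.34 for all genes, and 0.23 beside 0.03 after the scaling. The summed level of the stellate cell and myofibroblast markers was 133, 132 and 150 FPKM in the controls, 214, 238 and 235 in the model livers, 215, 252 and 153 with silibinin and 261, 246 and 197 FPKM with phloridzin. Decorin (Dcn) was the most abundant, at a mean of 85.7 FPKM. The liver with the lowest sum among the CCl4 livers, silibinin replicate 3, also had the lowest summed collagen level. Of 9 portal fibroblast and mesothelial markers tested, from 10 with Gli1 under the filter, 5 rose, or 3 after the scaling, without Fbln2 at 0.85 and Mfap4 at 0.93. Their sum was 4.91, 4.09 and 6.19 FPKM in the controls, 23.6, 19.6 and 24.6 in the model livers, 29.9, 27.7 and 15 with silibinin and 31.1, 19.2 and 19.0 FPKM with phloridzin. It was highest in phloridzin replicate 1 and, among the CCl4 livers, lowest in silibinin replicate 3, and Cd34 was its most abundant gene at 3.21 FPKM. No marker of these lists was at 0 in all livers, and the part of these cells in the collagen levels was not tested.

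Of the 10 macrophage markers, all tested, 3 rose with CCl4, also after the scaling, beside 9.42% and 4.22% of all genes. The same shares stand beside the 5 of 17, 5 of 9, 1 of 3 and 1 of 6 of the stellate, portal, cholangiocyte and lymphocyte lists, where 1 call is 1 gene of few. Their sum was 137, 236 and 193 FPKM in the controls, 355, 584 and 477 in the model livers, 419, 537 and 432 with silibinin and 668, 680 and 357 FPKM with phloridzin, with Lyz2 the most abundant at 202 FPKM. The cholangiocyte markers had 3 of 6 genes tested, with Krt7, Epcam and Cftr under the filter, and 1 rose, Spp1, which also led the sum at 30.3 FPKM and is made by other cells too. This sum was 11.3, 13.0 and 16.8 FPKM in the controls, 46.3, 55.7 and 50.3 in the model livers, 48.0, 48.8 and 24.2 with silibinin and 52.7, 26.9 and 25.7 FPKM with phloridzin. Spp1 made up most of it. Without Spp1 the other 2 genes tested summed to 1.46, 2.71 and 1.87 FPKM in the controls and 3.4, 4.96 and 3.99 FPKM in the model livers. They summed to 3.38, 3.13 and 6.07 FPKM with silibinin and 5.13, 4.11 and 6.57 FPKM with phloridzin, highest in replicate 3 of each drug group. Among 6 lymphocyte markers tested of 9, with Cd3g, Cd8a and Cd79a under the filter, 1 rose, Ptprc, and its list's median was 0.48. Of 10 hepatocyte markers, led by Alb at 18400 FPKM, 1 fell with CCl4, Cyp2e1, the enzyme that activates CCl4, at 3680, 1370 and 3390 FPKM in the controls and 475, 489 and 548 FPKM in the model livers. The 8 endothelial markers, led by Clec4g, had a median of 0.52, above 0.34 for all genes, and 0.18 after the scaling. Their sum was 64.9, 62.2 and 76.9 FPKM in the controls and 73.6, 94.1 and 77.7 FPKM in the model livers. With silibinin it was 52.1, 90.7 and 36.0 FPKM, and with phloridzin 92.0, 99.8 and 69.9 FPKM. Silibinin replicate 3 was thus the lowest in this sum too. The hepatocyte median turned from 0.03 to -0.39. The part of these cells in the collagen levels was not tested either.

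The genes most like the collagens were sought among genes with a mean of at least 1 FPKM (11602 over the 12 livers and 11600 within the 9 CCl4 livers), by Pearson's r with the mean z-score of the 10 genes. Over the 12 livers the top 10 were Arhgap45, Casp12, Man1c1, Gpnmb, Adamts2, Ltbp2, Ccdc3, Itga8, Rab31 and Htra1, with r from 0.984 to 0.973. As the controls lie far from the CCl4 livers, this r mostly reads that one step. Within the 9 CCl4 livers the top 10 were Il10rb, Rnf19a, Lbh, Lzts2, Sdr9c7, Riox2, Usp20, Dapk2, Fbrsl1 and Traf5, with r from 0.965 to 0.932, and 0 of the 10 were shared. The r values are descriptions of these livers. Adamts2, which removes the N-terminal propeptide of procollagens, was the 1 gene of the first set that is also on the list of assembly genes, with means of 0.93, 4.56, 3.56 and 3.63 FPKM in the control, model, silibinin and phloridzin groups.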

How the data were processed

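Total RNA of 12 livers was sequenced on an Illumina NovaSeq. The submitters' processing notes name bcl2fastq, FastQC 0.11.5, HISAT2 2.1.0, StringTie 1.3.3b, DESeq 1.28.0 and mm10. The authors deposited FPKM values for 169430 transcripts, scaled by length and library size. Multiplied by length, low values (at most 20 fragments, 5572 to 5984 per liver) in transcripts of at least 1500 bases were whole multiples of 1 step per liver (98.9% to 99.2% within 0.1), which gave the depth.

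FPKM was summed per symbol. Genes with a mean of at least 0.5 FPKM were tested on log2(FPKM + 1) by limma 3.58.1 (R 4.3.3) with a variance trend, 1 fit of 12 livers and 6 comparisons, adjusted by Benjamini-Hochberg over 13158 genes. The code was tested on simulated data. Ratios had exact permutation tests (scipy 1.17.1). Alternatives changed the pseudocount, filter, scaling, transcripts, tool, samples, block and left-out livers. Named were the 10 collagen genes, per list up to 3 called genes with the largest model difference, and the 10 genes most like the collagens; further names were chosen after their values were seen. Members and lists were chosen with earlier results of these data known. P-values measure the spread between these livers.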

Additional observations from a re-analysis of the deposited data

How the results depend on the processing

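The 10 collagen genes gave 60 differences (10 genes in 6 comparisons), each recomputed under 20 other settings, or 1185 values in all, as a gene under the minimum in a setting had no value. No called difference turned round among these values. Col5a2 had no value with protein-coding transcripts alone, where its model livers were lower than the controls, opposite to its called sum. A turn of that gene could therefore not be counted in that setting. A call was lost in 30 values and gained in 11, chiefly for Col1a2 and Col5a2, whose sums rest largely on partial transcripts. The count of collagen genes called in model against control was 6, from 5 to 6 with a liver left out and 4 with protein-coding transcripts alone. For silibinin against model it was 0 under every setting run. For phloridzin against model it was 0 in every setting with all 12 livers, and 0 to 1 with a liver left out, the 1 being Col6a1 without phloridzin replicate 1, a gene over the minimum only through phloridzin replicate 3; the cause was not tested. Phloridzin against silibinin gave 0 throughout. Against control, silibinin gave 4 to 7 and phloridzin 4 to 6.

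With the replicate number as a block, 6, 0 and 0 collagen genes were called in model against control, silibinin against model and phloridzin against model, 0 in phloridzin against silibinin, and 5 and 5 in the drug groups against control. All-gene calls of model against control were 1363 with this replicate block and 1382 without. Livers with the same number did not deviate together (18 pairs, r from -0.09 to 0.1), so the numbers do not pair them.

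All-gene calls moved by more than 1.5 times in some settings. For model against control, 1382 became 4594 without the fold cutoff, 2596 with a pseudocount of 0.1 and 2538 with limma-voom on recovered fragments. For silibinin against model, 526 became 1849 without the cutoff and 796 with limma-voom. For phloridzin against model, 463 became 1691 without the cutoff and 702 with the smaller pseudocount. For silibinin against control, 261 became 661, 828 and 688 in those 3 settings and 117 with the most abundant transcript, and for phloridzin against control 398 became 1051, 1103, 937 and 190, and 127 with only the 2 groups fitted. Phloridzin against silibinin, at 3, had 0 to 5. With a liver left out, silibinin against control had 102 to 399 (135 and 153 without control replicates 1 and 2, 103 and 102 without silibinin replicates 1 and 2, 399 without phloridzin replicate 1), and phloridzin against control 210 to 634 (210 and 238 without control replicates 1 and 2, 245 and 634 without phloridzin replicates 1 and 3). The collagen median of model against control ran from 0.83 to 2.71. The log2 ratio of Col1a1 to Col1a2 in model against control went from 2.18 to 0.73 with the most abundant transcript, and in phloridzin against control from 2.01 to -0.26. The ratio of Col6a3 to Col6a2 in model against control ran from -1.17 to 0.10. Some low values rest on few fragments, as Col6a1 had as few as 6 in a liver.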
